A study of Mus musculus with 2 samples.

Results

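The cells described are small intestinal macrophages rich in the transcripts of Ccl24, Npl and H2-M2. They were taken from both libraries of a droplet single-cell RNA experiment by their counts of unique molecular identifiers (UMIs), each of which stands for 1 captured transcript. Cells were kept from 200 genes upward if mitochondrial transcripts gave no more than 10% of their UMIs. Such a cell was placed in the gate when it held at least 3 UMIs of the 3 genes together and when these made up at least 0.05% of its UMIs. The gate held 839 of the 5628 cells that passed the cell filter, of 5828 deposited. Of these, 504 of 3016 came from the wild-type library and 335 of 2612 from the Ccr2-knockout library. The 3 genes chose the cells, so their own levels are given as a description.

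The wild-type mice were male C57BL/6J animals from Janvier. The Ccr2-/- mice, which lack the chemokine receptor by which monocytes enter tissue, were of JAX strain 004999 bred in-house, with no sex in the labels. Neither group has an age or a treatment in the labels. For each genotype 3 to 4 stripped intestines were pooled, and live CD45+ cells with CD11b, MHCII and CD64 on their surface were sorted into 1 library, after exclusion of lymphocytes, granulocytes and Ly6C+ monocytes by antibody. This sort bears on every share of cells given below. Pooling hides the spread between animals. With 1 library per genotype there is no replicate and no test between genotypes, and the source of the animals, the sequencing depth and the genotype cannot be told apart. The wild-type barcodes carry 2 suffixes, called lanes here. The labels do not say what sets the lanes apart or whether they share animals. They serve as a yardstick within 1 library and not as replicates. The gated cells had a median of 6330 UMIs in the wild type and 3632 in the knockout. The wild-type lanes shared 5 barcode sequences and the libraries shared 6. Ccr2 had 204 UMIs in the wild-type gated cells and 1 UMI in the knockout gated cells; whether the counted transcript end lies in the deleted part of the gene is not given in the sources used here.

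Ccl24 encodes eotaxin-2, a CC chemokine that attracts eosinophils through the receptor CCR3. Npl encodes N-acetylneuraminate pyruvate lyase, which splits the free sialic acid released when glycoproteins are broken down, and H2-M2 encodes a non-classical MHC class I protein. Acp5, the lysosomal tartrate-resistant acid phosphatase, and Cd63, a tetraspanin of late endosomes and lysosomes, mark cells with a large degradative compartment, such as osteoclasts. Macrophages of the intestinal wall clear dying cells and microbes in these compartments, and the MiT/TFE family of transcription factors turns on lysosomal genes through E-boxes with the core CACGTG.

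RefSeq promoter windows (GRCm38.p6, the 250 bases before a gene's start) were found for 2 of the 3 gate genes, Npl and H2-M2, and for 11 of the 13 lysosomal genes that were higher in gated cells of both libraries. Those shown are of gate genes, or of such lysosomal genes that hold the E-box core. CACGTG stood in the Npl window, 51 bases before the RefSeq start used. It also stood in windows of Ctsl (cathepsin L) and Lgmn (legumain), which were the holders among those 11 genes. Of all 32851 windows 6.02% held it, and of all 27025 genes 6.86% held it in at least 1 window. Of 44 measured lysosomal, tetraspanin and vacuolar ATPase genes with a window 9 held it. The match says only that the letters are there. The stretches below run 5′ to 3′ along the gene's strand, with CACGTG in capitals in Npl, Ctsl and Lgmn. In H2-M2 the capitals mark TTCCTC, the reverse complement of GAGGAA, the core bound by the macrophage factor PU.1, at 2 places; of all windows 23.3% held it on either strand. The Npl and Ctsl windows overlap annotated exons of GENCODE M21, so 30 bases around the match are shown. The Npl stretch lies at chr1:153549748-153549777 (minus strand), the Ctsl stretch at chr13:64370739-64370768 (minus), the Lgmn window at chr12:102439093-102439342 (minus) and the H2-M2 window at chr17:37483555-37483804 (minus). On the minus strand a gene begins at its higher coordinate. In GENCODE M21 this is 153550045 for Npl, 64370890 for Ctsl and 102439813 for Lgmn. The stretches of these 3 genes thus lie inside the annotated genes, and the H2-M2 window lies before its gene.
Npl: cccgcgcggcccCACGTGgtcccgcagccc
Ctsl: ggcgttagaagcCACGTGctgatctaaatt
Lgmn: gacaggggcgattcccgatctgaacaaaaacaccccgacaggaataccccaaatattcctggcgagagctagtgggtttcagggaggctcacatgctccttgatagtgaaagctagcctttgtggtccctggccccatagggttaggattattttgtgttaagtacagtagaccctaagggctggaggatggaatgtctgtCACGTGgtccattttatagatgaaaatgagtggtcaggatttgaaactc
H2-M2: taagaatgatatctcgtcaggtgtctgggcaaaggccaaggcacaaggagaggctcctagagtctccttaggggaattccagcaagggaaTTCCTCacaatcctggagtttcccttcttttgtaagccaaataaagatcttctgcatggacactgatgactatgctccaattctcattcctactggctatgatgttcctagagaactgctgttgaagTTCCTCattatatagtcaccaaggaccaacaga

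In GENCODE M21 (GRCm38) Ccl24 lies at chr5:135569937-135573049, Npl at chr1:153503015-153550045 and H2-M2 at chr17:37480851-37483552, all on the minus strand and protein coding. Levels below are CPM, the summed counts of a gene scaled to the summed UMIs of its group, and parentheses after a level hold exact Poisson 95% intervals, which cover counting error only. In the gated cells Ccl24 stood at 479 CPM in the wild type (456 to 502) and 709 in the knockout (663 to 758). Npl stood at 603 CPM (578 to 630) and 432 (396 to 471), and H2-M2 at 185 (171 to 200) and 350 (317 to 384). Npl was thus the leading gate gene in the wild type and Ccl24 in the knockout. Npl gave 47.6% of the gate UMIs in the wild type and 29% in the knockout, Ccl24 37.8% and 47.6%, and H2-M2 14.6% and 23.5%.

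The gate genes were spread unevenly over cells. Ccl24 reached 62 UMIs in a single wild-type cell and 37 in a knockout cell, H2-M2 reached 38 and 11, and Npl 21 and 6. All 3 genes were seen in 13.1% of gated wild-type cells and 10.4% of gated knockout cells, and at least 2 of them in 68.3% and 71%. Npl alone put 26.2% of the wild-type and 13.4% of the knockout gated cells in the gate, Ccl24 alone 4.56% and 9.55%, and H2-M2 alone 0.992% and 5.97%. The median gated cell took 0.0988% of its UMIs from the 3 genes in the wild type and 0.125% in the knockout. Just inside the gate, cells with exactly 3 UMIs numbered 57 in the wild type, with a median share of 0.0733%, and 128 in the knockout, with 0.0918%. Just outside, 204 wild-type and 10 knockout cells had 3 UMIs or more but too small a share, and 316 and 221 cells had exactly 2 UMIs.

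The share of cells in the gate was 15.4% in wild-type lane 1 (exact Clopper-Pearson interval 13.9% to 17%), 19.7% in lane 2 (17.2% to 22.5%) and 12.8% in the knockout (11.6% to 14.2%). The share climbed with UMI depth up to about 6000 UMIs in both libraries. Among cells of 3000 to 4500 UMIs it was 18.3% in the wild type (14.9% to 22%) and 22.2% in the knockout (19% to 25.7%). Among cells of 4500 to 6000 UMIs it was 22.4% (18.6% to 26.5%) and 25.7% (20.5% to 31.4%), so that the order of the libraries was the reverse of the unmatched one while the intervals overlapped. With each cell thinned to 2000 UMIs and a minimum of 3 gate UMIs, the gate held 7.25% in the wild type (6.33% to 8.26%) and 8.84% in the knockout (7.49% to 10.3%), and the lanes gave 6.14% and 10.04%. Thinning left out 148 wild-type and 1017 knockout cells. At 2000 UMIs Ccl24 was seen in 8.72% of wild-type and 12.6% of knockout cells, H2-M2 in 6.21% and 11.2%, and Npl in 24.7% and 24.5%. Lymphoid-marker cells had at least 3 UMIs of 8 lymphoid markers and under 0.3% of their UMIs from C1qa, C1qb and C1qc. That bound leaves out cells with more macrophage transcripts, which by itself favours a low share in the gate. None of these 26 wild-type and 29 knockout cells was in the gate, with exact upper bounds of 13.2% and 11.9%. Their median depths were 8353 and 2596 UMIs. At least 1 UMI of the 3 genes was seen in 2 and 1 of these cells (7.69% and 3.45%), against 54.3% and 42.3% of all cells.

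**Figure D1:**
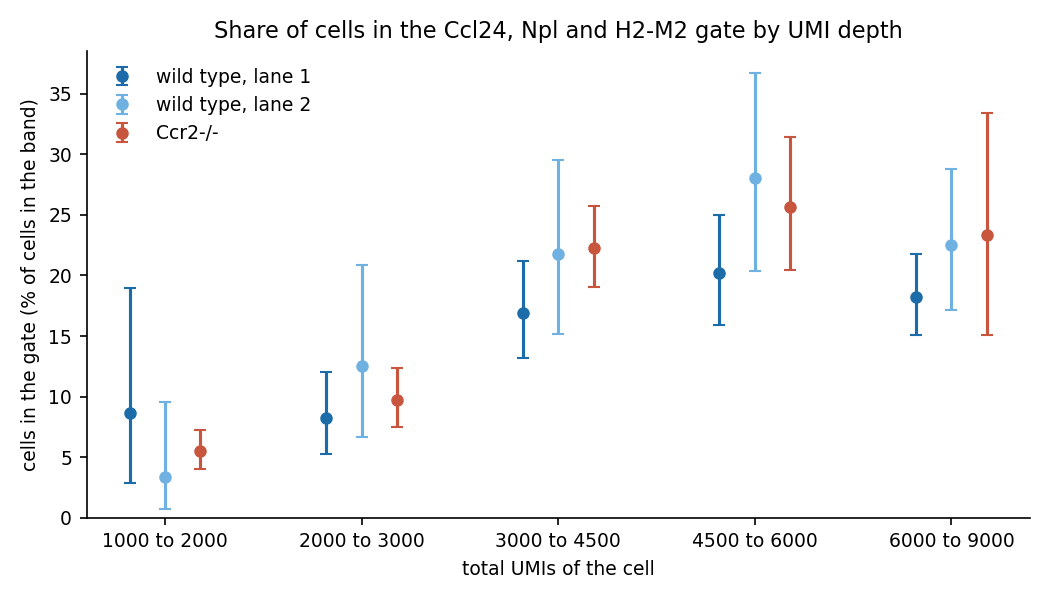
Share of cells in the Ccl24, Npl and H2-M2 gate (vertical axis, percent) by total UMIs of the cell (horizontal axis, bands), for the 2 wild-type lanes and the Ccr2-/- library; bars are exact 95% Clopper-Pearson intervals. At 3000 to 4500 UMIs the knockout value is 22.2%, against 16.9% and 21.7% in the lanes, and at 4500 to 6000 UMIs it is 25.7%, against 20.2% and 28%.

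Each gate gene was also examined in cells chosen by the other 2 genes alone, and compared with an equal number of cells of the same lane and UMI depth that had 0 UMIs of those 2. Ccl24 stood at 252 CPM in lane 1, 278 in lane 2 and 294 in the knockout, against 21, 41.6 and 71.8 CPM in the matched cells. Npl stood at 425, 600 and 250 CPM against 87.1, 157 and 109. H2-M2 stood at 125, 130 and 149 CPM against 4.48, 12 and 35.1. Every gate gene was therefore higher in cells chosen without it, in both lanes and in the knockout. The ratio was 8.75-fold for Ccl24, 4.35-fold for Npl and 15.4-fold for H2-M2 in the wild type, and 4.05-fold, 2.28-fold and 4.15-fold in the knockout. It was smaller in the knockout for all 3 genes, and for Ccl24 and H2-M2 the matched knockout cells also held more of the transcript. Cells of the knockout were shallower, and 0 UMIs say less about the lack of a transcript in a shallow cell. The part of depth in this difference was not tested.

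All further comparisons set the 839 gated cells against 839 cells with 0 UMIs of the 3 genes, paired within a lane on total UMIs to within 10%, with the gate genes left out of totals and rankings. Medians were 6330 and 6319 UMIs in the wild type and 3632 and 3633 in the knockout. Depth was thus evened within a library and not between the libraries. Its part in differences of the ratios between libraries was not tested. Ratios are given as log2 of gated over matched CPM with 1 CPM added to both, followed where given by the exact 95% interval of the 2 summed counts. A gene was counted when it was 1.5-fold higher or lower in both libraries. Of 4609 genes measured, 279 were higher (6.05% of genes) and 152 lower (3.3%) by this rule. Taken alone, the wild type had 11% of genes higher and 6.16% lower, and the knockout 11.8% and 7.07%. The median gene was at 0.08 in the wild type and 0.06 in the knockout. Across genes, which are not independent replicates, the ratios of the libraries had a Pearson r of 0.67, and those of the 2 wild-type lanes 0.81.

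Acp5 and Cd63, markers that the gate did not use, were higher in gated cells of both lanes and of the knockout. Both were named as markers of these cells with earlier results of these data known. Their levels are thus a description and no independent support. They also count in the lysosomal, membrane and osteoclast lists below. Acp5 stood at 1317 CPM in gated cells of lane 1, 1683 in lane 2 and 863 in the knockout, against 232, 275 and 330 CPM in matched cells. The gated and matched values were far apart in each, with a log2 ratio of 2.54 in the wild type (2.45 to 2.66) and 1.39 in the knockout (1.22 to 1.56). Cd63 stood at 507, 687 and 354 CPM against 101, 82.2 and 222. Its ratio was 2.60 in the wild type (2.44 to 2.78) and 0.67 in the knockout (0.45 to 0.90), where the gated level was lower and the matched level higher than in the wild type. The knockout value was just above 1.5-fold, and without cells holding enterocyte UMIs it was 0.50, under it.

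**Figure D2:**
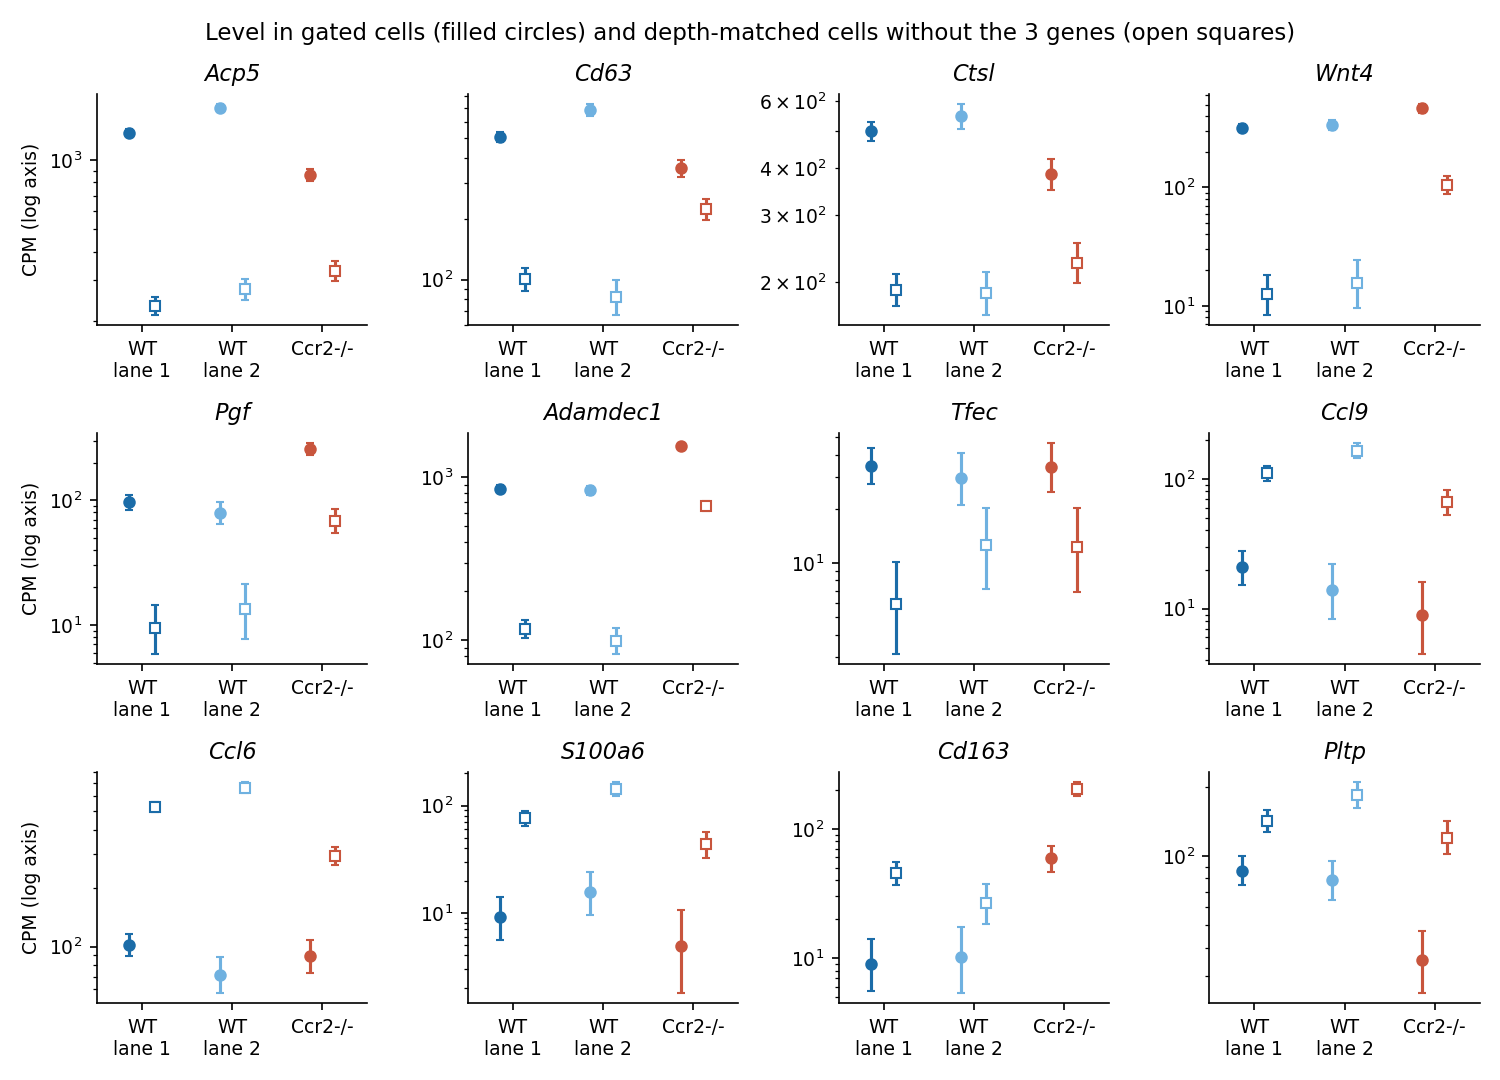
CPM of 12 genes (log axis) in gated cells (filled circles) and depth-matched cells without the 3 gate genes (open squares) in the 2 wild-type lanes and the Ccr2-/- library; bars are exact Poisson 95% intervals. Acp5, Cd63, Ctsl, Wnt4, Pgf, Adamdec1 and Tfec lie higher in gated cells of all 3, and Ccl9, Ccl6, S100a6, Cd163 and Pltp lie lower.

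Ranked by the smaller of the 2 libraries' ratios, the leading gene was Wnt4, a secreted WNT ligand. Wnt4 stood at 318 CPM in gated cells of lane 1, 336 in lane 2 and 465 in the knockout, against 12.7, 15.7 and 106 CPM in matched cells. This is a log2 ratio of 4.46 in the wild type (4.14 to 5.01) and 2.13 in the knockout (1.86 to 2.43). The gated levels differed by less than 1.5-fold between libraries, and the difference of the ratios came with a higher level in the matched knockout cells. Gas1, a membrane protein that modulates hedgehog signalling, stood at 51.6, 63.9 and 113 CPM in gated cells against 5.44, 4.7 and 27.8. Pgf, placental growth factor, stood at 96.4, 79.5 and 258 CPM against 9.51, 13.3 and 68.8. Il1r2, the decoy receptor for interleukin 1, stood at 128, 122 and 288 CPM against 41.2, 40.7 and 90. Its ratio was nearly the same in both libraries, at 1.59 and 1.67.

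The other leading genes were Stra6l (log2 ratio 2.45 in the wild type and 2.01 in the knockout), the uncharacterised 9530059O14Rik (2.90 and 1.93) and 2900026A02Rik (1.83 and 1.56), the matrix protein Spon1 (1.95 and 1.84), the lysophospholipid receptor Gpr55 (1.97 and 1.67), Pxdc1 (2.47 and 1.5) and the homeobox gene Hoxb4 (1.48 and 1.47). In both lanes taken alone and in the knockout all of these were above 1.5-fold. Fabp2, a fatty acid binding protein of enterocytes, was also among the 12, with 114, 189 and 58.1 CPM in gated cells against 16.8, 18.8 and 18.8. It is 1 of the 9 enterocyte markers, which together stood at 299 CPM in gated wild-type cells and 44.5 in matched ones (8 of 9 higher), and at 119 and 54.8 CPM in the knockout (8 of 9 higher). Their part in the other ratios was measured by leaving those cells out. Without cells holding any enterocyte UMI in either group, the other 11 leading genes kept ratios between 1.52 and 4.16 in the wild type and between 1.5 and 2.75 in the knockout.

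**Figure D3:**
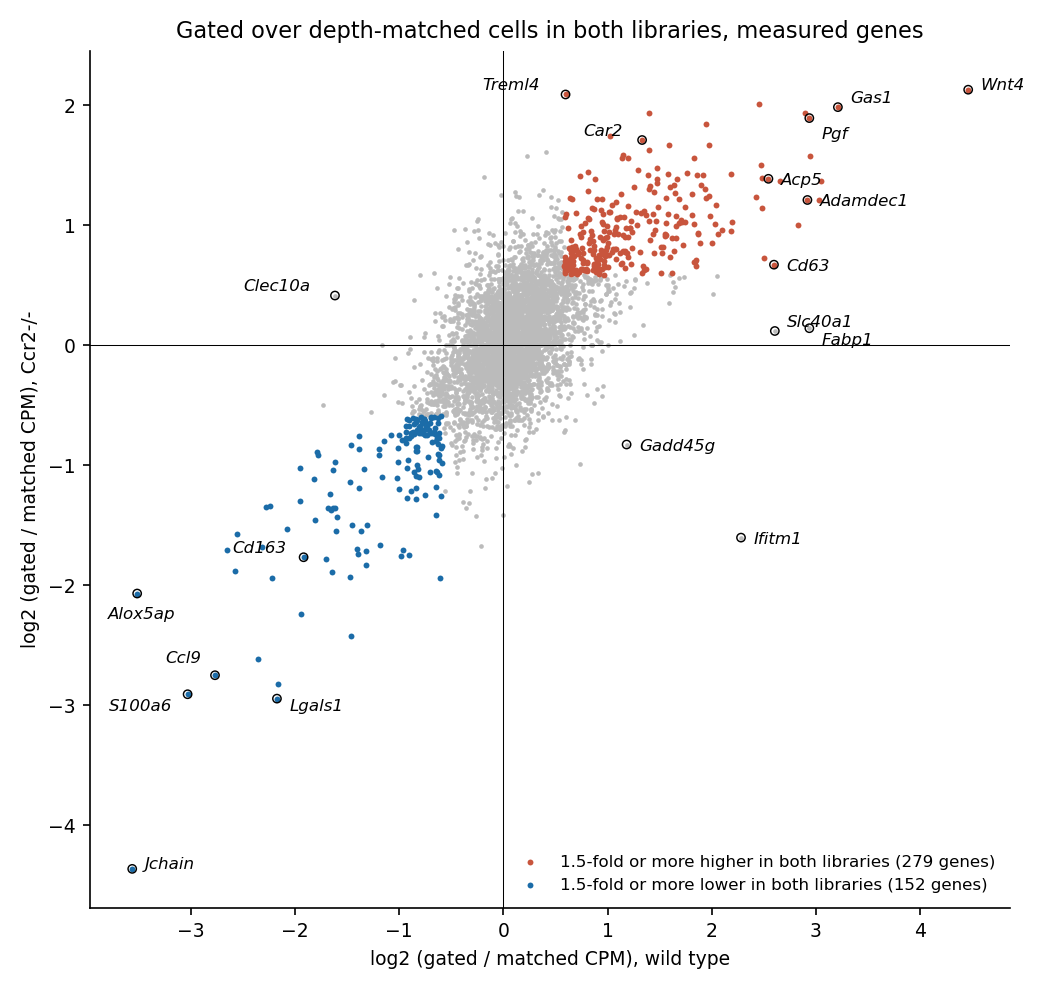
Log2 ratio of gated over depth-matched CPM in the wild type (horizontal axis) and in the Ccr2-/- library (vertical axis) for the 4609 measured genes, gate genes left out. The 279 genes at least 1.5-fold higher in both libraries (red) and the 152 at least 1.5-fold lower (blue) lie at the upper right and lower left, the other genes are grey, and Wnt4 lies at 4.46 and 2.13; Ifitm1 and Gadd45g are higher in gated wild-type cells and lower in gated knockout cells.

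Part of the lysosomal genes were higher in the gated cells. Of 29 measured lysosomal hydrolases and cathepsins, 7 were higher in both libraries and 0 lower, with medians of 0.52 and 0.32 beside 0.08 and 0.06 over all genes. Ctsl, a cysteine protease of the lysosome, stood at 499 CPM in lane 1, 547 in lane 2 and 385 in the knockout, against 190, 187 and 225 CPM in matched cells. Psap, the precursor of the saposins that help degrade sphingolipids, stood at 5677, 6316 and 9870 CPM against 3644, 4222 and 5026. Others besides Acp5 were Ctsz (log2 ratios 1.17 and 0.64), the palmitoyl thioesterase Ppt1 (1.04 and 0.78) and Lgmn (0.90 and 0.64). Lyz2, lysozyme, was among the lowest of the list, at -0.56 and -0.28.

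Among 13 membrane genes of the lysosome and tetraspanins, 4 were higher in both libraries and 0 lower. Besides Cd63 these were the tetraspanin Cd9 (391, 557 and 427 CPM against 146, 152 and 171), the receptor Scarb2 (log2 ratios 0.63 and 0.67) and the cholesterol transporter Npc1 (0.70 and 0.79). Lamp2 was near 0, at 0.11 and -0.20. Of 14 subunits of the vacuolar proton pump, Atp6v0e (0.65 and 0.59) and Atp6v1d (0.66 and 0.73) passed in both libraries, beside 6.05% of all measured genes. The list had medians of 0.52 and 0.37. Of the 13 calls in these lysosomal, tetraspanin and pump lists, 8 were kept when both groups were restricted to C1q-positive cells without Ccr2 and Plac8, and 6 without depth matching. In the restricted cells Lgmn was at 0.52 in both libraries, Ctsz at 0.98 and 0.52, Scarb2 at 0.22 and 0.63, Atp6v0e at 0.54 and 0.55, and Atp6v1d at 0.21 and 0.63.

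Genes known from osteoclasts, the bone-resorbing relatives of macrophages, were partly shared. Of 8 measured, Acp5, Ocstamp, Tnfrsf11a and Car2 were higher in both libraries and 0 were lower, with medians of 1.14 and 0.72. Ocstamp, a membrane protein needed for osteoclast fusion, stood at 131, 175 and 176 CPM in gated cells against 24.9, 26.6 and 66.3. Tnfrsf11a, the receptor RANK, stood at 76.9, 82.6 and 135 CPM against 42.6, 36.8 and 86.8. Without cells holding enterocyte UMIs its knockout log2 ratio was 0.569, under 1.5-fold. Car2, carbonic anhydrase 2, had ratios of 1.33 and 1.71, but the lanes differed, at 0.82 and 2.89. Nfatc1, the transcription factor that drives osteoclast differentiation, stood at 0.44 and 0.58 and was below 1.5-fold.

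Of 15 genes of the MiT/TFE factors and autophagy, only Tfec was 1.5-fold higher in both libraries. Over all measured genes 6.05% were higher, so 1 of 15 lies near that share. Tfec stood at 34.8 CPM in lane 1, 29.6 in lane 2 and 34.4 in the knockout, against 5.89, 12.5 and 12.3. The related Mitf had ratios of 0.76 and 0.27, Tfeb -0.02 and -0.35, and Tfe3 0.12 and -0.45. Among 6 measured genes of sialic acid and amino sugar metabolism, the pathway of the gate gene Npl, Nagk, a kinase of N-acetylglucosamine, was higher in both (0.62 and 0.71), but below 1.5-fold in the restricted cells (0.48 and 0.57). Renbp, another gene of this list, was at 1.07 (0.77 to 1.41) in the wild type and at 0.20 (-0.44 to 0.85) in the knockout.

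Proteases of the extracellular matrix were among the largest differences. Of 8 measured matrix proteases, receptors and inhibitors 6 were higher in both libraries and 1 lower, with medians of 1.54 and 0.83. Adamdec1, a metalloprotease typical of intestinal macrophages, stood at 852 CPM in lane 1, 831 in lane 2 and 1549 in the knockout, against 117, 99.4 and 670 in matched cells. Its log2 ratio was 2.92 (2.78 to 3.09) and 1.21 (1.09 to 1.33). The collagenase Mmp13 stood at 569, 474 and 1033 CPM against 216, 196 and 670, and the membrane protease Mmp14 at 371, 261 and 325 against 131, 106 and 151. Without cells holding enterocyte UMIs the knockout log2 ratio of Mmp13 was 0.577, under 1.5-fold. The gelatinase Mmp2 was at 2.06 and 0.92, the urokinase receptor Plaur at 1.69 and 1.22, and Adam17, which sheds cytokines from membranes, at 0.66 and 0.74. The inhibitor Timp2 was the member that was lower, at -1.64 and -1.36. Of these 7 calls 5 were kept without depth matching and 5 without cells holding enterocyte UMIs, with Adam17 and Mmp13 lost in both. Adam17 also lost its call in the restricted cells, with a pseudocount of 10 CPM and with lane 1 alone. The same held with 500 genes and 5% mitochondrial UMIs as limits. Mmp13 also lost its call with median-of-ratios scaling.

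Lipid genes differed in both directions. Of 18 measured, 6 were higher in both libraries and 3 lower, with medians of 0.69 and 0.44. The scavenger receptor Msr1 stood at 387, 362 and 313 CPM against 139, 92.4 and 168. Soat1, which esterifies cholesterol for storage, was at 1 and 0.99, the lipid droplet protein Plin2 at 0.77 and 0.68, and the sterol-sensing nuclear receptor Nr1h3 at 1.37 and 0.63, the knockout value with an interval of -0.09 to 1.42. In the restricted cells the knockout ratios of Plin2 and Nr1h3 were 0.40 and 0.33. Lower were the fatty acid translocase Cd36 (14.9, 10.1 and 63.8 CPM against 59.3, 44.6 and 159), the lipid receptor Trem2 (-1.60 and -1.43) and the cholesterol exporter Abca1 (-1.16 and -1.10).

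The CC chemokines other than the gate gene stood lower in the gated cells. Of 8 measured, 5 were lower in both libraries and 0 higher, with medians of -1.55 and -1.08. Ccl9 stood at 20.8 CPM in lane 1, 14 in lane 2 and 9 in the knockout, against 111, 165 and 66.3 in matched cells. Ccl6 stood at 102, 71.7 and 89.2 CPM against 527, 661 and 293. The monocyte attractants Ccl2 and Ccl7 and the related Ccl12 were lower as well, Ccl2 at 81.5, 38.2 and 374 CPM against 211, 195 and 769. Ccl3 and Ccl4 did not reach 1.5-fold in either direction, with ratios between -0.43 and 0.27. Among CXC chemokines, Cxcl9, an interferon-induced T cell attractant, was higher, at 490, 389 and 439 CPM against 189, 229 and 146.

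The classical antigen presentation genes showed little difference, although H2-M2 belongs to the MHC. Of 8 MHC class II genes 0 were called in either direction, with medians of 0.14 and 0.16, and H2-Aa was at -0.06 and 0.05. Among 13 MHC class I and Ib genes other than H2-M2, 2 of the Q region were lower in both libraries, H2-Q6 (-1.32 and -1.83) and H2-Q7 (-0.61 and -0.92), and 0 were higher. These are near-identical paralogues between which transcript ends may be divided. Of 8 genes linked to interleukin 4 signalling, to which Ccl24 is also known to respond, 3 were higher (the receptor Il4ra at 0.67 and 0.70, Tgm2 at 0.94 and 0.79, and Pdcd1lg2 at 1.41 and 1.33) and the lectin Mgl2 was lower (-0.63 and -0.65). The medians of this list were 0.20 and 0.55, and over all measured genes 6.05% were higher and 3.3% lower. Without cells holding enterocyte UMIs the knockout ratio of Tgm2 was 0.37, under 1.5-fold. Il4ra lost its call with the gate of 5 UMIs and 0.1% and with lane 2 alone. Mgl2 lost its call without depth matching and with 500 genes and 5% mitochondrial UMIs as limits.

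Among markers of resident macrophages the gated cells divided. Timd4, a phosphatidylserine receptor, and Cd4 mark long-lived macrophages of the gut wall. Timd4 stood at 75.1, 78.7 and 214 CPM in gated cells against 18.6, 18 and 118, and Cd4 at 176, 189 and 272 against 49.4, 47 and 142. In the restricted cells Timd4 was at 1.36 in the wild type and 0.42 in the knockout, below 1.5-fold, and Cd4 at 1.18 and 0.89. Both markers were seen in 21.8% of gated wild-type cells (18.3% to 25.7%) and 4.96% of matched cells (3.24% to 7.24%), and in 30.7% (25.8% to 36%) and 15.5% (11.8% to 19.9%) in the knockout. Cd163, a haemoglobin scavenger receptor of macrophages near vessels, was lower, at 9.05, 10.1 and 58.9 CPM against 45.3, 26.6 and 203. Pltp (-0.91 and -1.75) and Fcrls (-0.98 and -1.76) were lower as well.

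The gated cells carried the general macrophage markers. The 8 markers of the class summed to 17836 CPM against 12794 in the wild type and 12128 against 10469 in the knockout, with 7 of 8 higher in both. Of 16 core macrophage genes 3 were higher and 0 lower: Csf1r, the receptor for the macrophage growth factor (1466, 1480 and 2056 CPM against 648, 593 and 1288), Mertk (1.2 and 0.73) and the transcription factor Irf8 (0.65 and 0.87). Monocyte markers were lower in the gated cells, with the 8 summed at 177 CPM against 1215 in the wild type and 58.1 against 219 in the knockout; Vcan was at 0 in both. Ccr2 and Plac8 were both seen in 5.56% of gated and 29.6% of matched wild-type cells, and in 0 of 335 gated knockout cells (exact upper bound 1.1%). When both groups were restricted to cells with C1q UMIs and without Ccr2 or Plac8, 258 genes were higher and 116 lower in both libraries. Of 99 genes named by the rules and called in both libraries 71 kept their call; Csf1r, at 0.81 and 0.50, was among the 28 that did not. Of the kept genes, Acp5 then had ratios of 1.78 and 1.18, Cd63 of 1.74 and 0.64, Wnt4 of 3.28 and 1.93, and Adamdec1 of 2.01 and 1.24.

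Cells rich in Thbs1, Plaur, Pgf and Vwa1, chosen by at least 3 UMIs and 0.05% in the same way, overlapped with the gated cells. They made up 26.6% of gated and 6.94% of matched wild-type cells, and 70.4% and 34.6% in the knockout. Read the other way, 34.9% of those cells in the wild type and 24.1% in the knockout lay in the gate. Of 5 measured genes linked to Thbs1, 4 were higher in both libraries, among them Thbs1 itself (208, 145 and 551 CPM against 93.8, 53.2 and 279) and Tnfaip2 (720, 417 and 1898 against 227, 140 and 751).

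Jchain, S100a6, Ccl9, Emp3, Lgals1, S100a11 and Alox5ap were among the lowest genes in gated cells of both libraries. S100a6, a calcium-binding protein, stood at 9.05 CPM in lane 1, 15.6 in lane 2 and 4.91 in the knockout, against 76.1, 143 and 43.4; the knockout value rests on 6 UMIs. The related S100a11 was at -2.16 and -2.82, the membrane protein Emp3 at -2.35 and -2.61, and the galectin Lgals1 at -2.17 and -2.95. Alox5ap, which presents arachidonic acid for leukotriene synthesis, stood at 11.3, 7.01 and 29.5 CPM against 114, 135 and 127. In C1q-positive cells without Ccr2 or Plac8, S100a6 was at -0.86 and -0.99 and S100a11 at -0.36 and -1.53, and Ccl9 was at -2.19 and -3.03, Emp3 at -3.04 and -2.24, and Alox5ap at -3.40 and -2.05.

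Jchain, the joining chain of plasma cell antibodies, had the lowest knockout ratio among the measured genes, at -4.36, with -3.56 in the wild type. The haemoglobin genes given below fell under the CPM filter in the wild type and were not ranked. It stood at 203 CPM in gated and 2408 in matched wild-type cells, and at 178 and 3693 in the knockout. Without cells that held plasma cell, haemoglobin or fibroblast transcripts its ratios were 0.11 and 0.17; Jchain is itself a plasma cell transcript, so leaving out those cells takes most of it away by construction. The 6 B and plasma cell markers, Jchain among them, summed to 245 CPM against 2528 in the wild type and 223 against 3798 in the knockout. Cells with at least 3 UMIs of these markers made up 5.56% of gated and 7.74% of matched wild-type cells. In the knockout they made up 6.27% of both groups. The sums thus differed far more than the shares of cells. The 4 erythroid markers, haemoglobin genes included, stood at 10.9 against 14.9 CPM and at 418 against 15432. Knockout cells with at least 3 UMIs of the erythroid markers made up 20.6% of gated and 22.4% of matched cells. Of the other lists of foreign markers, the 5 mast cell markers were at 0.86 CPM in gated wild-type and 0.82 in gated knockout cells, with Cpa3, Mcpt1, Mcpt2 and Fcer1a at 0. The 5 eosinophil markers were at 4.58 and 13.9 CPM, with Epx and Prg2 at 0 in both. The 7 T cell or innate lymphoid markers in the files were at 18.3 and 28.6 CPM in gated and 32.7 and 45.8 in matched cells, the 5 fibroblast markers at 4.87 and 21.3 against 15.5 and 169, and the 5 neutrophil markers at 39.5 and 51.6 against 33.3 and 38.5, with S100a8 and S100a9 at 0 in gated cells. The 8 dendritic cell markers were at 84.2 and 67.9 CPM against 135 and 52.4, the 7 Paneth and goblet markers in the files at 60.7 and 56.5 against 72.3 and 50.8, and the 4 endothelial markers at 104 and 185 against 26.1 and 196. Pecam1, which macrophages can also express, gave 103 of the 104 CPM and 183 of the 185, and was the 1 endothelial marker of 4 that was higher. The part of these cell types in the results was not tested beyond the exclusions given.

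Ribosomal protein genes were lower as well. Of 26 ribosomal protein genes 11 were lower in both libraries and 0 higher, with medians of -0.75 and -0.57. Rpl13 stood at 1812, 1898 and 1160 CPM against 3459, 3643 and 1922. Among C1q-positive cells without Ccr2 and Plac8 4 of these 11 calls were kept, and without depth matching 1. Of 20 immediate-early genes, which can be induced while tissue is digested, 5 were lower and 0 higher, with medians of -0.21 and -0.31; Nfkbia was at -0.92 and -1.02 and Egr1 at -0.60 and -0.85, and 0 of the 5 calls were kept in the same restricted cells, where wild-type Nfkbia was at -0.44 and Egr1 at -0.38. The 12 mitochondrially encoded genes, the 10 heat shock genes and the 5 proliferation genes had 0 called in both libraries. Of 10 genes of the TGF-beta pathway, Tgfb1 (0.64 and 0.80) and its feedback inhibitor Smad7 (1.62 and 0.60) were higher. Neither call was kept with median-of-ratios scaling. Smad7 also lost its call with doublets removed, without depth matching and with a pseudocount of 10 CPM. The same held without cells with plasma cell, haemoglobin or fibroblast transcripts. Tgfb1 also lost its call with lane 2 alone. Of 6 of the interleukin 10 pathway, Socs3 was lower (-1.32 and -1.72). Of 10 interferon response genes Isg15 was higher (1.29 and 1) and Ifitm3 (-1.46 and -1.5) and Irf7 (-0.79 and -0.60) were lower. Over all measured genes 6.05% were higher and 3.3% lower. Counts of 1 or 2 genes in lists this short can lie near these shares. Of 12 genes for the uptake of apoptotic cells 2 were higher and 1 lower, and of 4 measured genes of recruited monocytes 3 were lower, with medians of -2.40 and -1.91. The 5 chemokine receptor and 8 inflammatory cytokine genes had 0 called in both libraries.

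**Figure D4:**
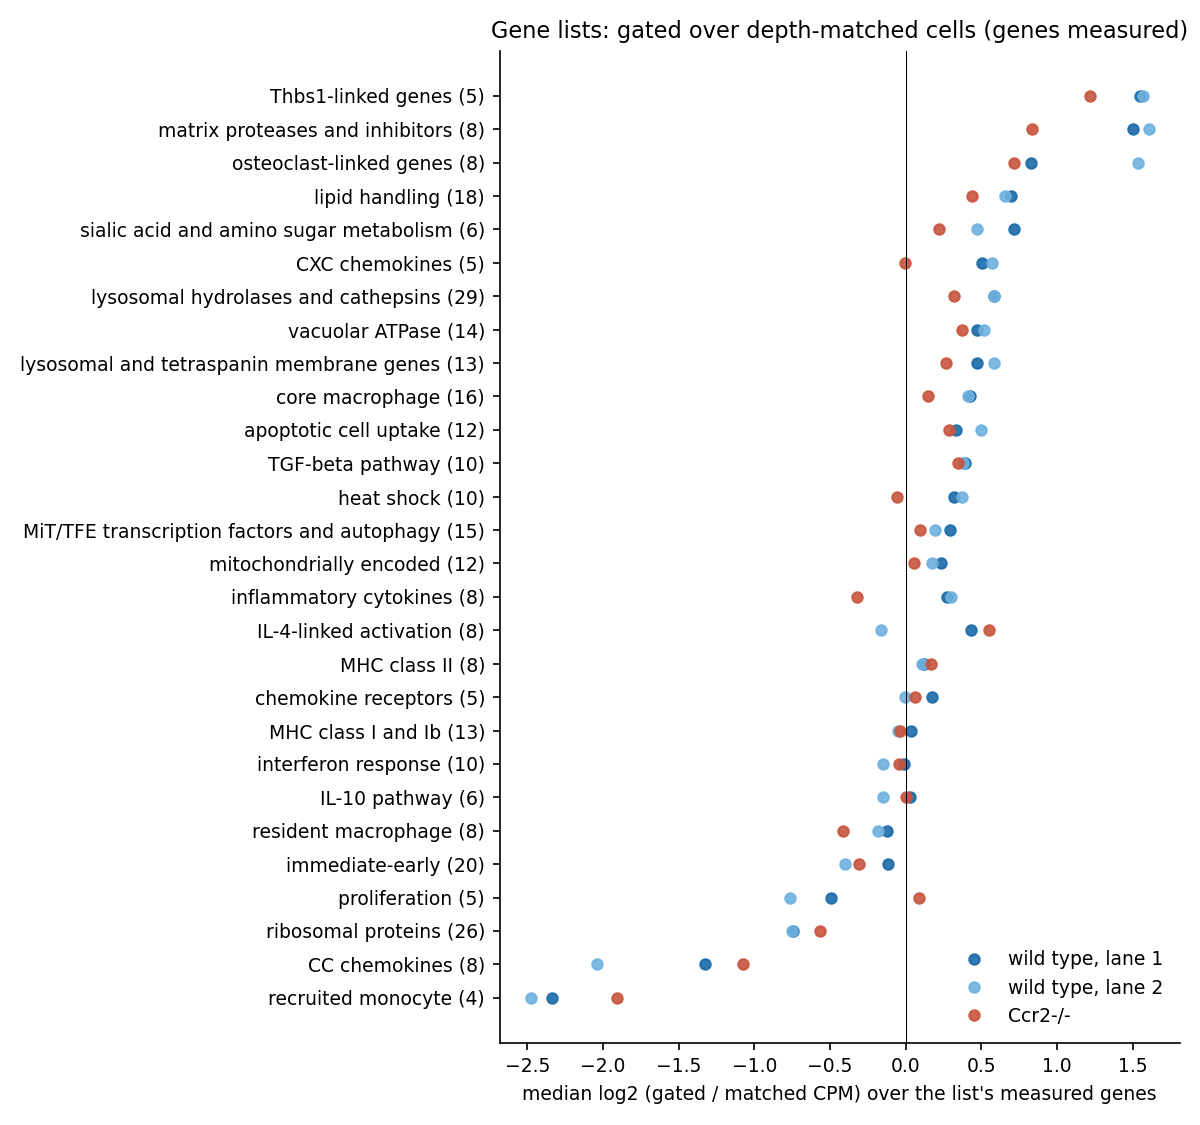
Median log2 ratio of gated over depth-matched CPM (horizontal axis) for 28 gene lists, gate genes left out, in the 2 wild-type lanes and the Ccr2-/- library; the number of measured genes stands after each name. Thbs1-linked genes (1.64 with the lanes pooled and 1.22 in the knockout) and matrix proteases (1.54 and 0.83) lie farthest to the right, and recruited monocyte genes (-2.40 and -1.91) and CC chemokines (-1.55 and -1.08) farthest to the left.

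Cells outside the gate that held some gate UMIs had intermediate levels. Cells were divided by their gate UMIs into those with 0, those with at least 1 but outside the gate, and gated cells with under 0.1%, 0.1% to 0.2%, and 0.2% or more of their UMIs from the 3 genes. Wnt4 stood at 24.9, 101, 283, 378 and 395 CPM along these classes in the wild type and at 147, 294, 404, 484 and 563 in the knockout. Acp5 stood at 290, 649, 1384, 1539 and 1559 CPM in the wild type and at 345, 609, 794, 909 and 933 in the knockout. Ccl9 stood at 120, 66.6, 19.5, 10.5 and 28.2 CPM in the wild type and at 59.6, 43.9, 9.4, 8.8 and 8.4 in the knockout. Ungated cells with some gate UMIs lay between the cells with 0 and each gated class for these genes. Among the 3 gated classes there was no common order: wild-type Acp5 differed little between the upper classes, and wild-type Ccl9 was highest in the uppermost. The classes are cut on the values that chose the cells. These classes were not matched on depth; their median UMIs were 5380, 6979, 7612, 5304 and 4920 in the wild type and 2150, 2579, 4426, 3386 and 2349 in the knockout.

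**Figure D5:**
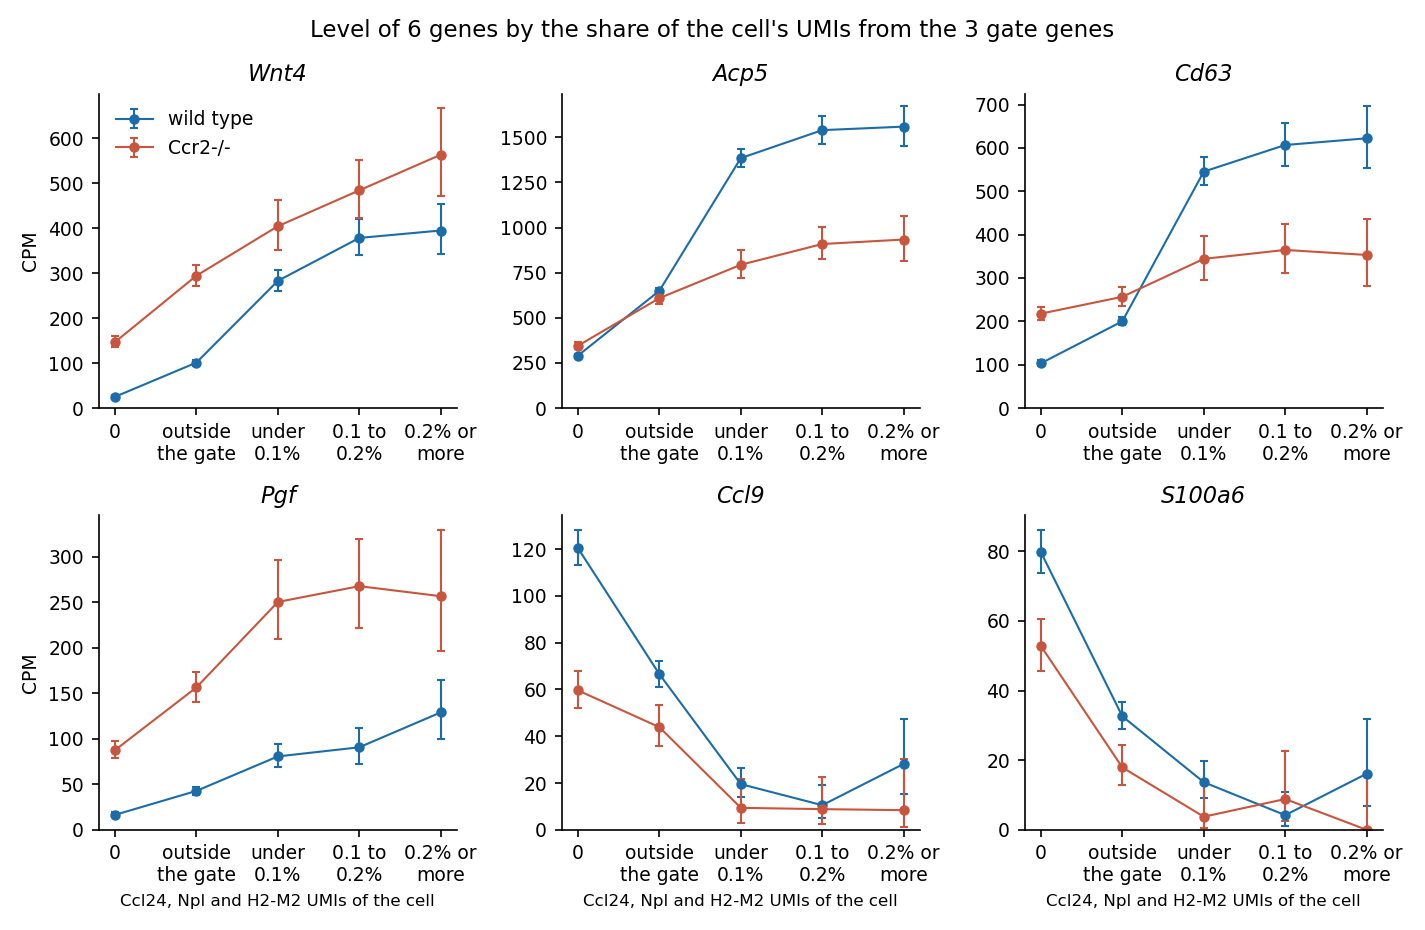
CPM of Wnt4, Acp5, Cd63, Pgf, Ccl9 and S100a6 (vertical axes) by the part of a cell's UMIs from the 3 gate genes (horizontal axes), in the wild type and the Ccr2-/- library; bars are exact Poisson 95% intervals. Acp5 goes from 290 CPM in cells with 0 gate UMIs to 1384 in the first gated class and 1559 in the last in the wild type; the knockout values are 345, 794 and 933.

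Within the gate, Cd63 was higher in cells with H2-M2 and lower in cells with Ccl24. Gated cells with Ccl24 had 459 CPM of Cd63 and those without it 675 in the wild type, and 279 and 445 in the knockout. Cells with H2-M2 had 702 CPM and those without it 490, and 413 and 290 in the knockout. Both lanes had these directions, with log2 ratios of -0.50 and -0.57 for Ccl24 and 0.47 and 0.63 for H2-M2. Acp5 differed little between cells with and without Ccl24, at 1386 and 1509 CPM in the wild type and 829 and 905 in the knockout. The phospholipase Pla2g2d went with H2-M2 in the wild type (713 CPM with and 319 without) and not in the knockout (524 and 549). Alox5ap, low in the gate as a whole, was higher in cells with Ccl24 than without, at 15.2 and 4.88 CPM in the wild type (25 and 9 UMIs) and 38.4 and 18.3 in the knockout (26 and 10 UMIs). Since a gated cell without 1 gate gene must hold more of the others, these splits also differ in the other 2 genes.

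For a few genes the ratio differed between the libraries; the difference could not be tested. Slc40a1, the iron exporter ferroportin, stood at 85.5, 61.6 and 281 CPM in gated cells against 14.5, 7.04 and 259, so that it was 6.09-fold higher in gated wild-type cells and 1.08-fold in the knockout. In C1q-positive cells without Ccr2 and Plac8 the log2 ratio of Slc40a1 in the wild type was 0.97 in place of 2.61, and 0.04 in the knockout. Ifitm1 stood at 84.2, 120 and 10.6 CPM against 15.4, 25.8 and 34.4, and Gadd45g, a stress-induced regulator of growth arrest, at 122, 98.9 and 18 against 50.3, 47.7 and 32.7. Both were higher in gated cells of each lane and lower in gated knockout cells, on 13 and 22 knockout UMIs. In the restricted cells the knockout ratios were -0.54 and -0.24, both under 1.5-fold. Wnt4, given above, also belonged to the 5 genes with the largest differences in this direction. Fabp1 was at 2.94 and 0.14, beside the enterocyte markers given above. The largest differences in the other direction were those of Alox5ap (-3.51 and -2.07), the lectin Clec10a (-1.62 and 0.41), Nvl (-0.19 and 1.40), Treml4 (0.60 and 2.09) and Nhp2 (-0.48 and 0.95). Clec10a was at -0.60 and 0.35 and Nvl at -0.42 and 0.62 in the restricted cells.

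Set directly against each other, the gated cells of the libraries differed by 1.5-fold or more upward in the knockout for 1220 of 5256 genes (23.2%) and downward for 810 (15.4%). The lanes of the wild type differed by as much for 761 genes (14.5%). These values hold the depth, the source of the animals and the genotype at once. Several genes that were high in the gate had smaller differences between the gated cells than between all cells with 0 gate UMIs. Wnt4 was 0.52 higher in the knockout on the log2 scale in gated cells and 2.51 higher in cells with 0 gate UMIs, Adamdec1 0.87 and 2.38, Gas1 1 and 2.61, and Pgf 1.5 and 2.34. Acp5 was -0.75 in gated and 0.25 in the other cells, and Cd63 -0.70 and 1.07. Ccl7 (3.26 and 2.67), Ccl2 (2.49 and 2.23) and Egr1 (2.82 and 3.09) were higher in the knockout in both kinds of cell, as were all 20 immediate-early genes among gated cells, with a median of 1.59. Between gated cells of 2000 to 6000 UMIs, 225 wild-type and 264 knockout cells, Wnt4 was at 0.25, Pgf at 1.15, Acp5 at -0.53, Cd63 at -0.85, Ccl7 at 3.36, Thbs1 at 0.66 and Ifitm1 at -1.82.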

How the data were processed

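Sorted small intestinal macrophages were profiled with the 10x Genomics 3′ chemistry, version 2, in 1 wild-type and 1 Ccr2-/- library. Per the submitters' processing notes, Cell Ranger 3.0.1 and the build mm10 were used; cell calling is not given in the sources used here. The deposited values are unnormalised UMI counts per gene and cell, 20766579 UMIs in the wild type and 7506405 in the knockout.

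Gated cells and cells with 0 gate UMIs were paired within a lane on total UMIs, counts were summed and scaled to CPM without the 3 gate genes (numpy 2.4.6, scipy 1.17.1), and log2 ratios were taken with a pseudocount of 1 CPM for genes with a mean of at least 20 CPM and 30 UMIs in each library. The ratio and call steps were checked on Poisson counts simulated around the summed totals. That simulation holds no spread between cells and does not cover the gate or the pairing. Named genes were the 12 highest by the smaller ratio, the 8 lowest by the larger, the 5 largest differences each way among genes with 50 UMIs in each library, and of 28 lists the 2 highest, the 2 lowest and all called members. The members, lists and rules were chosen with earlier results of these data known. Doublets were kept in the main comparison; removing the highest Scrublet scores (scanpy 1.11.5) is an alternative. Of 27998 gene identifiers 98.7% were found in GENCODE M21, the source of gene coordinates; promoters are from RefSeq. Alternatives changed the cell filter, the gate, the matching, the scaling, the pseudocount and the low filter, took each lane alone, and restricted both groups to C1q-positive cells without Ccr2 and Plac8. Leaving out cells with enterocyte UMIs, or with plasma cell, haemoglobin or fibroblast transcripts, was added after seeing the data. Some genes that the rule names are not reported here.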

Additional observations from a re-analysis of the deposited data

Results flagged for a closer look

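For 2 genes the gated cells of both wild-type lanes went one way and the gated knockout cells the other, against depth-matched cells without gate UMIs; the difference between the libraries was not tested. Ifitm1 had a log2 ratio of 2.38 in lane 1, 2.17 in lane 2 and -1.60 in the knockout. Gadd45g had 1.26, 1.04 and -0.83. The knockout values rest on 13 and 42 UMIs of Ifitm1 and 22 and 40 UMIs of Gadd45g in gated and matched cells. When both groups were restricted to C1q-positive cells without Ccr2 and Plac8 the signs were the same and the knockout ratios smaller: Ifitm1 had 1.13, 3.29 and -0.54 (10 and 15 knockout UMIs) and Gadd45g 0.65, 0.49 and -0.24 (22 and 26).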

How the results depend on the processing

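With each alternative 212 to 329 genes were higher and 116 to 197 lower in both libraries, except that 719 and 883 of 12980 were called with no filter on low values. Of the 20 leading genes 18 to 20 stayed past 1.5-fold in both libraries; Fabp2 and Jchain were those lost without enterocyte UMIs. Of the 99 named genes called in both libraries 71 kept their call among C1q-positive cells without Ccr2 and Plac8, 71 without depth matching, and 83 to 99 under the others; of 326 single ratios 137 moved beyond their interval in the first of these, 76 in the second and 112 with the gate of 5 UMIs and 0.1%. Knockout Cd63 went under 1.5-fold with 500 genes and 5% mitochondrial UMIs as limits (0.54) and without enterocyte UMIs (0.50). Median-of-ratios scaling moved the part of higher genes among those called from 64.7% to 54.8%. At 5 UMIs and 0.1% the share in the gate was 7.10% (wild type) and 4.67% (knockout), and after thinning 7.25% and 8.84%. With that stricter gate the log2 ratio of the left-out gene was 4.35 for Ccl24 in the wild type and 1.66 for Npl in the knockout. Signs were reversed for Irf7 in the knockout with the stricter gate (0.38), for Fabp2 in the knockout without depth matching (-0.67), for Egr2 (0.069) and Dusp2 (0.81) in the wild type among C1q-positive cells without Ccr2 and Plac8, and for Jchain without cells holding plasma cell, haemoglobin or fibroblast transcripts (0.11 and 0.17); apart from Jchain, whose carrying cells were left out, the cause was not tested. Lane 1 alone gave 298 higher and 142 lower genes, and lane 2 alone 267 and 169. No paired analysis was possible because each genotype has 1 library. Depth limits genes with few knockout UMIs, such as S100a6.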
